A study of Homo sapiens with 6 samples.

Results

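Collagens are proteins built from chains that wind in threes into a stiff triple helix, and they form most of the fibrous matrix around cells. The fibrillar types, among them types I, II, III, V, XI and XXVII, assemble into banded fibrils. Other types coat fibrils (the fibril-associated collagens, or FACIT group), form beaded filaments, networks or anchoring fibrils, span the plasma membrane, or join basement membranes (the multiplexins). In the endometrium the fibrillar types come mainly from stromal cells, and progesterone is known for remodelling that matrix during the cycle. The genes described here are the collagen genes outside type IV, chosen by a symbol of COL, a number, A and a number and by an annotation to that gene alone. Of the 19775 genes with a probe set of their own, 37 met this rule, 11 of them fibrillar and 26 of other types, and they lie on 15 chromosomes. Together they have 93 probe sets, and the brightest probe set on average over the 6 arrays stood for each gene. COL17A1 was not analysed here.

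RNA came from IKPRAB-36, an Ishikawa human endometrial cancer cell line into which progesterone receptors A and B had been stably introduced, so that cells of both groups carried both receptors. Cells were cultured for 48 h without hormone (control, 3 arrays) or with 1 nM medroxyprogesterone acetate (MPA, a synthetic progestin, 3 arrays), to ask which genes a progestin alters in cells that hold both receptors. Whether the line is a single clone, and whether the arrays of a group came from separate cultures, are details not given in the sources used here, so the p-values measure only the spread between these arrays. No line without the receptors was analysed here. Values are RMA signals on the log2 scale. Because every probe set has its own brightness, differences are taken between arrays within a probe set. Where genes are ranked by signal or set against the median probe set, the signal is only a rough guide to RNA level. The number of arrays limits the precision.

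The median signal of the arrays was 5.16 to 5.28, and arrays of one group correlated at 0.9875 to 0.9965 over all probe sets. MPA array 3 stood apart in the poly-A RNAs that are added during labelling, which averaged 6.6 there and 8.09 to 8.9 elsewhere, and in 18S ribosomal RNA, at 7.06 there and 8.09 to 9.44 elsewhere. Its part in the results was not tested beyond leaving it out, and values without it are given with the genes the results turn on. PGR, the gene of both receptors, had a signal of 10.17 to 10.25 on the control arrays and 10.47 to 11.08 on the MPA arrays. It was higher on every MPA array without passing the limma test (log2 difference 0.48, adjusted p = 0.294). All 8 epithelial markers were above the median probe set, from CLDN4 at 5.47 to KRT18 at 14.04, with a mean over the list of 9.75 to 10 on the control arrays and 9.61 to 9.96 on the MPA arrays. Of these, CDH1 and EPCAM were lower on every MPA array than on any control array without passing the limma test (log2 differences -0.76 and -0.54, adjusted p = 0.128 and 0.0586), and their part in the collagen results was not tested. The stromal markers PDGFRA and PDGFRB had mean signals of 4.63 and 4.12, under the signal of the median probe set, 5.2. Of the 10 stromal markers, 4 were above that median, COL3A1 at 10.22, COL1A1 at 8.57, THY1 at 5.95 and DCN at 5.39. The other 6, among them COL1A2 at 4.9, were under it. The mean signal of all 10 was 5.2 to 5.43 on the control arrays and 5.13 to 5.32 on the MPA arrays. Of 4 endothelial and 4 leukocyte markers measured, 1 of each was above the median. In RNA from whole cultures, fewer cells of a kind and less RNA per cell cannot be told apart.

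MPA changed few of the collagen genes outside type IV, and in both directions. COL23A1, a membrane-spanning collagen, was higher with MPA, and the fibril-coating collagen genes COL12A1 and COL9A3 were lower. No fibrillar collagen gene passed the test, although 4 of them, COL1A1, COL2A1, COL3A1 and COL27A1, had lower signals on every MPA array than on any control array. COL18A1, a basement membrane collagen gene, had higher signals on every MPA array and passed only in its dimmer probe set. COL15A1 and COL16A1 were lower on every MPA array without passing, and the arrays of the other 27 genes overlapped. A gene passed when limma gave an adjusted p under 0.05, with Benjamini-Hochberg adjustment over 54613 probe sets, and its change met the fold minimum of the study's methods. That minimum removed none of the genes with such a p.

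By this test 1 of the 37 genes was higher and 2 were lower. Over all genes 1.74% were higher and 1.16% lower, and counts of 1 and 2 genes are too small to be set apart from these shares. Among all probe sets 663 were higher and 444 lower, and 546 of 1152 were higher when each array was set to the mean of 11 housekeeping genes. Of those 11 genes, 4 were themselves higher on every MPA array than on any control array, and none was lower on every one. At an unadjusted p under 0.05, 2 collagen genes were higher and 8 lower, beside 1227 higher and 1100 lower of all 19775 genes. The MPA arrays lay wholly above the control arrays for 2 genes, 5.41% of the 37, against 8.96% of all genes. They lay wholly below for 8 genes, 21.6%, against 7.98% of all genes, and overlapped for the rest. The median log2 fold change (MPA minus control) was -0.01 over the collagen genes and 0.02 over all genes.

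**Figure D1:**
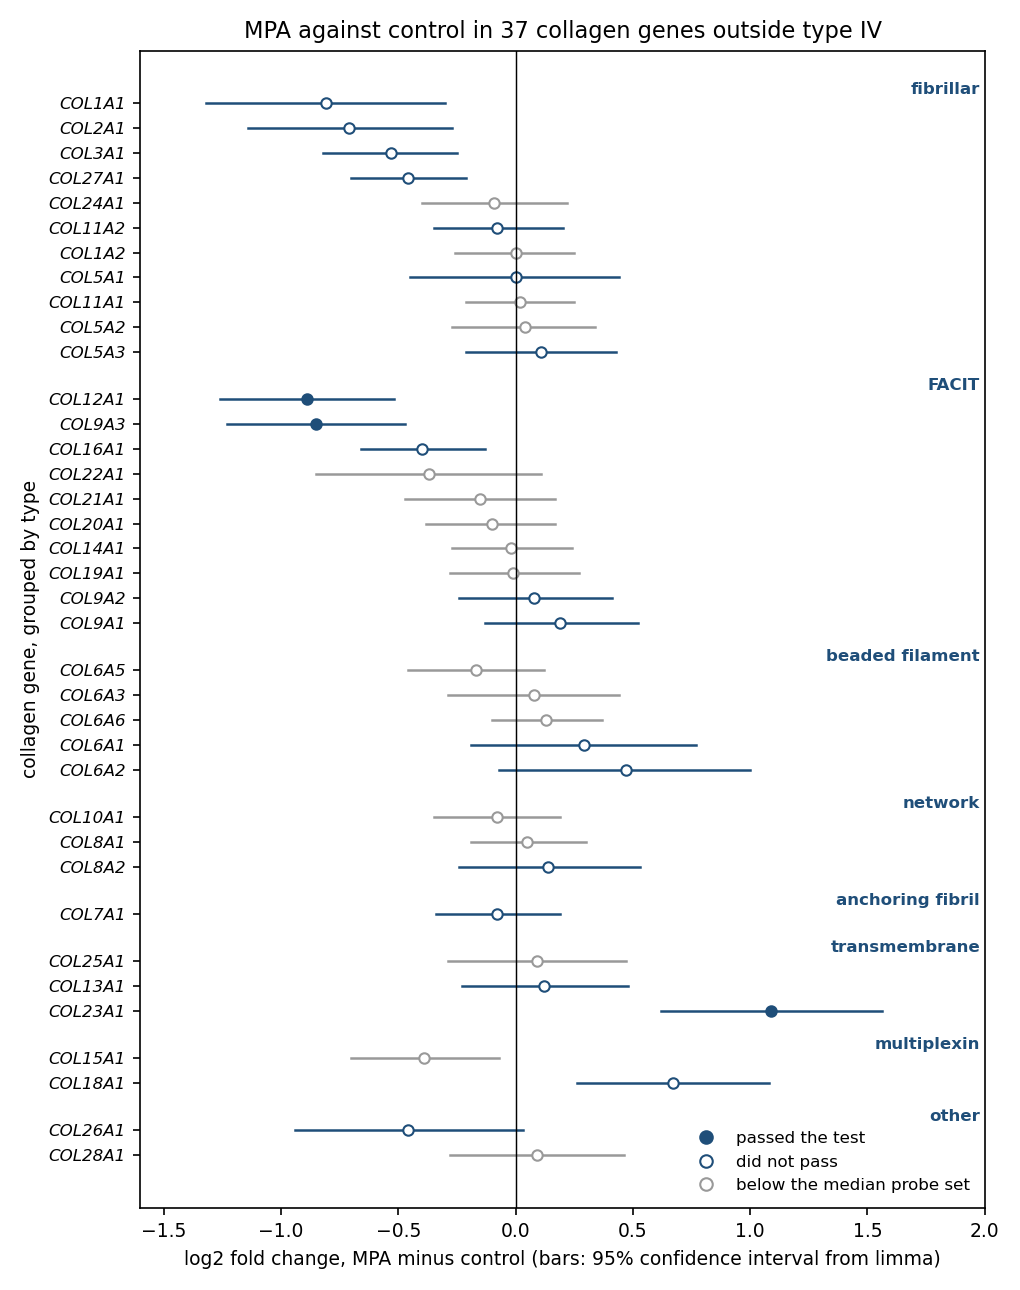
Log2 fold change (MPA minus control, x axis) of each of the 37 collagen genes, grouped by type, with the 95% confidence interval from limma as bars. Filled points passed the test, open blue points did not, and grey points are genes whose signal was under the median probe set. COL23A1 lies furthest to the right, followed by COL18A1. COL12A1 and COL9A3 lie furthest to the left, followed by 4 fibrillar genes, with COL26A1, which is not fibrillar, level with COL27A1 among them.

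COL23A1, which encodes a transmembrane collagen whose ectodomain can be shed, had the largest change of the 37 genes. Its signal was 6.23, 5.83 and 6.14 on control arrays 1 to 3 and 7.01, 6.83 and 7.62 on MPA arrays 1 to 3. Every MPA array exceeded every control array, and MPA array 3 was the highest of the 6. The gene was 2.13-fold higher with MPA (log2 1.09, SE 0.21, 95% interval 0.62 to 1.56, limma adjusted p = 0.0367). Without MPA array 3 the difference was 0.86 with an adjusted p of 0.0319. With any one of the control arrays or MPA array 1 left out the gene no longer passed, and over all 6 such fits the difference was at least 0.86 and the adjusted p 0.0319 to 0.142. The gene has a single probe set. The other transmembrane collagen genes, COL13A1 and COL25A1, differed by 0.12 and 0.09 with overlapping arrays.

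COL18A1, which encodes a basement membrane multiplexin and the source of the fragment endostatin, had both of its probe sets higher on every MPA array. The brighter one read 6.58, 6.56 and 6.81 on the control arrays and 6.96, 7.32 and 7.67 on the MPA arrays. Its difference was 0.67 (SE 0.18, 95% interval 0.26 to 1.08) and did not pass (limma adjusted p = 0.152), nor did it without MPA array 3 (0.49, adjusted p = 0.23). The dimmer one read 6.35, 6.15 and 6.40 on the control arrays and 6.90, 7.18 and 7.63 on the MPA arrays, again with no overlap. It passed, at 1.91-fold higher (log2 0.94, SE 0.18, limma adjusted p = 0.0411). Without MPA array 3 the dimmer probe set differed by 0.74 with an adjusted p of 0.0428. It no longer passed without any one of the control arrays or without MPA array 2, and over the 6 fits its adjusted p was 0.0365 to 0.152. It also no longer passed with housekeeping scaling (0.86, adjusted p = 0.0611). COL15A1, the other multiplexin gene, lay at 3.10 ± 0.23 in controls and 2.71 ± 0.11 with MPA (SD, n = 3), near the lower end of the signal range, and did not pass (difference -0.39, limma adjusted p = 0.327, and -0.34 without MPA array 3).

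COL12A1, which encodes the chain of type XII collagen, a FACIT collagen that binds the surface of type I fibrils, had the largest fall. The control arrays read 8.81, 8.85 and 9.31 and the MPA arrays 8.1, 7.91 and 8.27. The groups were separate, with MPA array 2 the lowest. The fall was 0.89 on the log2 scale, to 0.538 of the control signal (log2 -0.89, SE 0.16, 95% interval -1.26 to -0.52, limma adjusted p = 0.0289). All 5 of its probe sets had negative differences, from -0.89 to -0.15, and the arrays were separate for 3 of them, but only the brightest passed. Without MPA array 3 the difference was -0.98 (adjusted p = 0.0352). The gene no longer passed without control array 1, control array 3, MPA array 1 or MPA array 2, and over the 6 fits the difference was -0.98 to -0.73 with adjusted p-values of 0.0352 to 0.134. With the mean of all its probe sets it was -0.52 and did not pass (adjusted p = 0.175).

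COL9A3 encodes 1 of the 3 chains of type IX collagen, a FACIT collagen on the type II fibrils of cartilage. Control signals were 6.51, 5.87 and 6.37, and MPA signals were 5.46, 5.4 and 5.34. The MPA arrays lay close together and below all the controls, of which control array 2 was the lowest. The fall was to 0.555 of the control signal (log2 -0.85, SE 0.16, limma adjusted p = 0.04). Without control array 2 the difference was -1.04 with an adjusted p of 0.00482, while without any other single array the gene no longer passed. Without MPA array 3 it was -0.82 with an adjusted p of 0.104, and the highest adjusted p of the 6 fits was 0.205. The genes of the partner chains of type IX did not pass, with differences of 0.19 for COL9A1 and 0.08 for COL9A2 and overlapping arrays. Whether the 3 chains differed from each other in their response was not tested.

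**Figure D2:**
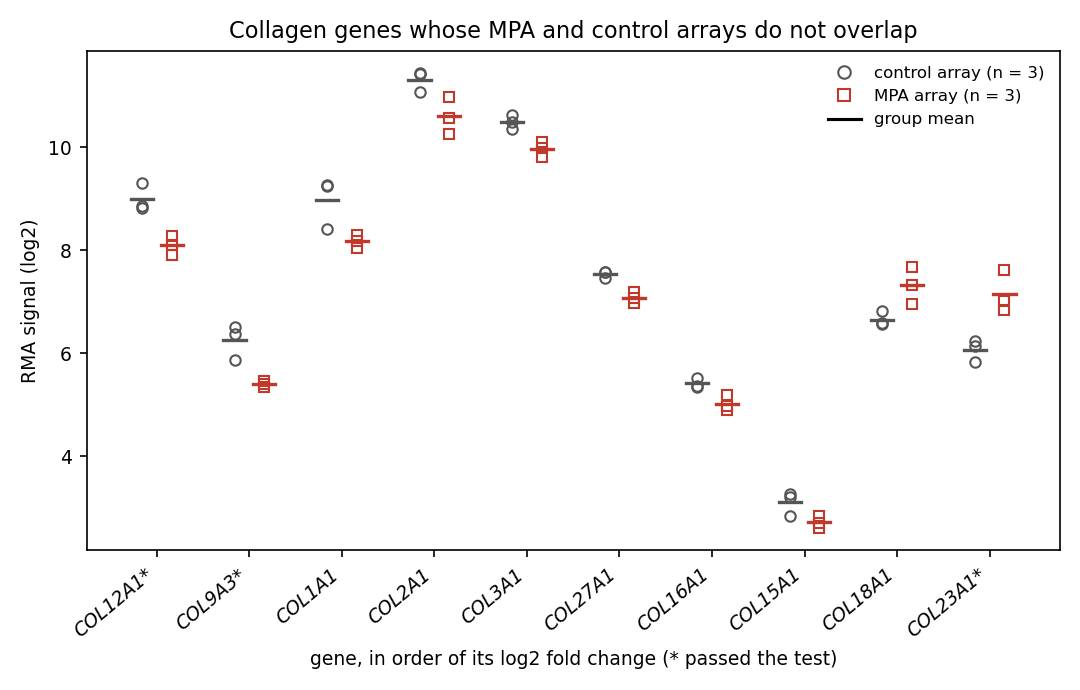
RMA signal (log2, y axis) on each control array (grey circles, n = 3) and each MPA array (red squares, n = 3), with the group mean as a bar, for the 10 collagen genes whose groups did not overlap, in order of fold change along the x axis. In 8 genes all MPA arrays lie below the controls and in 2, COL18A1 and COL23A1, above; an asterisk marks the 3 that passed the test.

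The promoters of 4 genes are shown. COL23A1, COL18A1 and COL12A1 are the genes with an entry in the promoter table that passed in some probe set, and COL27A1 is the fibrillar gene with an entry whose arrays were separate. RefSeq promoter sequences (GRCh38.p14, 250 bases before to 50 bases after the gene start, written along the gene's strand) matched 25 of the 37 genes. Capitals mark every GC box, GGGCGG or its complement CCGCCC, the motif bound by Sp1-type factors. The windows are chr5:178590344-178590643 on the minus strand for COL23A1, chr21:45404915-45405214 on the plus strand for COL18A1, chr6:75206004-75206303 on the minus strand for COL12A1 and chr9:114155287-114155586 on the plus strand for COL27A1.
COL23A1 promoter: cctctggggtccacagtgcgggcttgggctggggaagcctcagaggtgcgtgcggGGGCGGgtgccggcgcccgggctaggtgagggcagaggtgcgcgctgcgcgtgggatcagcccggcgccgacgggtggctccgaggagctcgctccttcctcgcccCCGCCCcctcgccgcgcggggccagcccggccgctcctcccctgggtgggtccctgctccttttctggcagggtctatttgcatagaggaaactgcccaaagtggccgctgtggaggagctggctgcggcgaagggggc
COL18A1 promoter: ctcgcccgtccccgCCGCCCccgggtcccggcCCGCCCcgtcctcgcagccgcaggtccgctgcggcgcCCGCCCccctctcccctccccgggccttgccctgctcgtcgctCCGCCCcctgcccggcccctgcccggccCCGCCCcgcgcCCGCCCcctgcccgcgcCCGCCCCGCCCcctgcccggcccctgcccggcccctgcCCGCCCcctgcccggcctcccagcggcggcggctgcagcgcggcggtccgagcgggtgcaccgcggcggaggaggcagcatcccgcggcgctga
COL12A1 promoter: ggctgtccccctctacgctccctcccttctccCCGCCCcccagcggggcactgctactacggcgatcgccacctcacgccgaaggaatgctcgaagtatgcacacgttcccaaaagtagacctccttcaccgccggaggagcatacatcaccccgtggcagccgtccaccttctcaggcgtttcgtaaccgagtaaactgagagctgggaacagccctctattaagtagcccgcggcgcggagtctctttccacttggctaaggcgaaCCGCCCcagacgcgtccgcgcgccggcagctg
COL27A1 promoter: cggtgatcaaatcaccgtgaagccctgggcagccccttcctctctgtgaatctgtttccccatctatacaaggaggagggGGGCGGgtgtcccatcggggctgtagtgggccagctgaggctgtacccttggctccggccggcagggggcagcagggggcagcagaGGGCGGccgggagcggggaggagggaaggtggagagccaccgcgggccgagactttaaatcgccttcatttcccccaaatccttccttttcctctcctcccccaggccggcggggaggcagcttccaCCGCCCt
COL18A1, with 9 matches, of which a pair overlapped, had the highest GC content of the 25 promoters, 86.7%. The COL23A1 and COL12A1 windows held 2 GC boxes each, and the COL27A1 window held 3.

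Over the 25 promoters a GC box was found in 15, or 60.0%, against 44.6% of the 27305 promoters in the table. The median GC content was 66.0% against 58.3%. The CCAAT box (CCAAT, both strands) was found in 5 of the 25, or 20%, against 35.7% of all promoters, and TATAAA (both strands) in 4, or 16.0%, against 12.0%. Overlapping matches were each counted. The response element shared by the progesterone and glucocorticoid receptors was searched as G, any base, ACA, 3 free bases, TGT, any base and C. It matched none of the 25 windows, which do not include COL9A3, COL1A1, COL2A1 or COL3A1. Of all 27305 windows it matched 106, or 0.388%. These matches describe letters in a short window and no binding was measured.

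None of the 11 fibrillar genes passed the limma test, and 4 of them had lower signals on every MPA array than on any control array. At an unadjusted p under 0.05, 4 were lower and none higher, beside 1100 lower and 1227 higher of all 19775 genes. SAM, a permutation-based method used by the study and coded here from its description, called 868 of 54613 probe sets lower. Among these were the brightest probe sets of the same 4 genes, COL1A1, COL2A1, COL3A1 and COL27A1. These 4 genes make up 36.4% of the fibrillar genes, while 15.4% of the genes of other types were separate in that direction. Signal level bears on these counts, since 7 of the 11 fibrillar genes and 13 of the 26 others were above the median probe set. Among genes above the median, the MPA arrays lay wholly below the controls in 10.2% of all genes, in 7 of the 20 collagen genes (35.0%), in 4 of the 7 fibrillar ones (57.1%) and in 3 of the 13 others (23.1%). The median difference was -0.08 over all 11 fibrillar genes and 0.02 over all 26 others, and among the genes above the median probe set it was -0.46 for the 7 fibrillar ones and 0.12 for the 13 others. The other 3 of the 7, COL5A1, COL5A3 and COL11A2, overlapped. The 3 separate genes among the 13 others, COL9A3, COL12A1 and COL16A1, were all FACIT genes. They make up 30.0% of the 10 FACIT genes, of which 5 were above the median probe set, so separation below the controls was not particular to the fibrillar genes. Set against the control mean, the median of the 7 fibrillar genes was 0.05, -0.14 and 0.12 on the control arrays and -0.46, -0.35 and -0.33 on the MPA arrays. For the 13 others it was 0.03, -0.14 and 0.12 on the control arrays and 0.01, -0.1 and 0.35 on the MPA arrays. The genes share arrays and are not replicates, so the difference between the classes was not tested.

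COL2A1, the gene of the main collagen of cartilage, had 2 probe sets with similar differences. The brighter read 11.41, 11.07 and 11.43 in controls and 10.56, 10.26 and 10.98 with MPA. MPA array 3 was the highest of its group, just below the lowest control. The difference was -0.71 (SE 0.19, 95% interval -1.14 to -0.27, limma adjusted p = 0.15), and that of the dimmer probe set, whose arrays overlapped, was -0.66 (adjusted p = 0.282). Without MPA array 3 the gene passed, at -0.89 with an adjusted p of 0.0336.

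COL3A1, which encodes type III collagen of reticular and vascular matrix, had controls at 10.48, 10.35 and 10.63 and MPA arrays at 9.98, 9.8 and 10.1. The groups were separate, here and in 4 of its 5 probe sets. Its difference of -0.53 (SE 0.12, 95% interval -0.82 to -0.25) did not pass (limma adjusted p = 0.0918), nor did it without MPA array 3 (-0.60, adjusted p = 0.0741). The next brightest probe sets differed by -0.49 and -0.52, and the mean of all 5 by -0.36 (limma adjusted p = 0.164).

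COL1A1, which encodes the chain that makes up most of type I collagen, the main collagen of bone, skin and tendon, gave less uniform values. The brightest probe set read 9.27, 8.41 and 9.24 in controls and 8.3, 8.04 and 8.17 with MPA. Control array 2 lay far nearer the MPA arrays than the other controls did. The difference was -0.81 (SE 0.22, limma adjusted p = 0.168), and without control array 2 it was -1.09 and passed (adjusted p = 0.00516), while without MPA array 3 it was -0.81 (adjusted p = 0.277). Its 5 probe sets disagreed in direction, with differences of -0.81, 0.07, -0.48, 0.21 and -0.25 from the brightest to the dimmest. The mean of all 5 differed by -0.25 and did not pass (limma adjusted p = 0.688). COL1A2, which encodes the partner chain of type I collagen, lay under the median probe set and had almost the same mean in both groups, 4.91 ± 0.06 and 4.90 ± 0.14 (SD, n = 3).

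COL27A1, the gene of a fibrillar collagen of cartilage and its growth zones, had controls at 7.45, 7.57 and 7.58 and MPA arrays at 7.07, 7.18 and 6.97. Spread within each group was small and the groups did not overlap. The difference of -0.46 (SE 0.11, 95% interval -0.70 to -0.21) missed the threshold (limma adjusted p = 0.0895), and without MPA array 3 it was -0.40 (adjusted p = 0.154). The arrays of 3 of its 5 probe sets were separate, and the others differed by -0.01 and 0.06. With the mean of all its probe sets the difference was -0.19 and did not pass (limma adjusted p = 0.531).

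**Figure D3:**
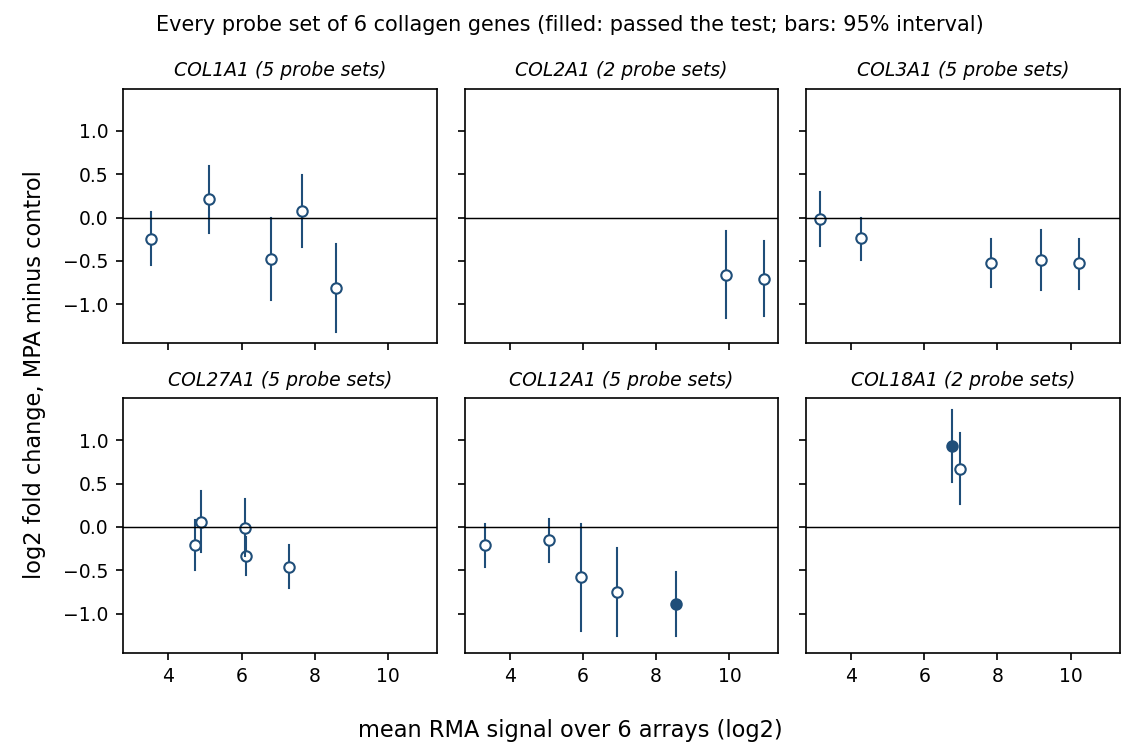
Log2 fold change (MPA minus control, y axis) of every probe set of 6 collagen genes against its mean signal over the 6 arrays (log2, x axis), with 95% confidence intervals from limma and filled points for those that passed. The probe sets of COL1A1 fall on both sides of 0, those of COL3A1 and COL12A1 on one side with larger differences at higher signal, and both of COL18A1 above 0.

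The type V genes, whose chains start and limit fibril growth, were about level. COL5A1 read 8.84, 8.27 and 8.95 in controls and 8.7, 8.46 and 8.89 with MPA, a difference of 0.00 with a 95% interval of -0.45 to 0.44. COL5A2 and COL5A3 differed by 0.04 and 0.11. Of the type XI genes, which encode cartilage fibril chains, COL11A2 differed by -0.08 and COL11A1, under the median probe set, by 0.02. COL24A1 differed by -0.09 at the lowest signal of the 37 genes, 2.67. All of these arrays overlapped.

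Among the 10 FACIT genes, 2 passed and both were lower, 8 had a negative difference and the median was -0.13. COL16A1, the gene of a FACIT collagen of skin and cartilage matrix, was also separate, at 5.37, 5.34 and 5.52 in controls and 4.97, 4.89 and 5.18 with MPA. Its difference was -0.40 (SE 0.12) and did not pass (limma adjusted p = 0.209), nor without MPA array 3 (-0.48, adjusted p = 0.0974). The FACIT genes under the median probe set, COL14A1, COL19A1, COL20A1, COL21A1 and COL22A1, differed by -0.37 to -0.01 and overlapped.

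The 5 type VI genes, whose chains build beaded microfibrils near the cell surface, had a median difference of 0.13 and none passed by limma, at an unadjusted p under 0.05 or by SAM. COL6A2 had the largest difference, with controls at 8.42, 7.99 and 8.46 and MPA arrays at 8.59, 8.39 and 9.29. MPA array 3 was far above the rest and MPA array 2 lay under control arrays 1 and 3. The difference was 0.47 with a 95% interval of -0.07 to 1.00, and it was 0.20 without MPA array 3. COL6A1 differed by 0.29, or 0.15 without MPA array 3, and COL6A3, COL6A5 and COL6A6, under the median probe set, by 0.08, -0.17 and 0.13.

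Of the remaining genes none passed. COL7A1, which encodes the anchoring fibril collagen of skin, differed by -0.08, and the network-forming COL8A1, COL8A2 and COL10A1 by 0.05, 0.14 and -0.08. COL26A1 read 8.54, 7.97 and 8.43 in controls and 7.66, 7.63 and 8.29 with MPA. Only MPA array 3 reached into the control range, and the difference was -0.46 (95% interval -0.94 to 0.03). COL28A1 differed by 0.09. In all, 17 of the 37 genes had a signal under the median probe set, with means of 2.67 to 4.9 and differences of -0.39 to 0.13, and at such a signal these arrays can miss a change.

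P3H2, LOX, P4HA2 and P4HA1, genes of enzymes that hydroxylate or crosslink collagen chains, were higher with MPA by more than COL23A1 was, in their brightest probe sets. In lists taken from textbook roles, 59 genes of 5 lists were measured. Of these, 5 were higher and 1 lower by limma, beside 1.74% and 1.16% of all genes. When the lists were made, LOX and ITGB1 were known to be called in earlier results of these data. The counts are therefore a description only. The list medians were -0.05 to 0.29.

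Among 16 measured genes of collagen folding and hydroxylation 3 were higher, none lower, and the median difference was 0.21. P3H2, a prolyl 3-hydroxylase, read 10.42, 10.27 and 10.42 in controls and 12.46, 12.41 and 12.65 with MPA. The groups were far apart, at 4.41-fold (log2 2.14, SE 0.11, limma adjusted p = 5.95e-05). P4HA2, a catalytic chain of prolyl 4-hydroxylase, which makes the hydroxyproline that stabilises the helix, read 9.08, 8.65 and 8.96 in controls and 10.52, 10.29 and 10.7 with MPA (3.04-fold, limma adjusted p = 0.0011). Its homologue P4HA1 read 9.06, 9.35 and 9.34 in controls and 10.36, 10.47 and 10.41 with MPA (2.24-fold, limma adjusted p = 0.00145). Neither gene's groups overlapped. These 3 genes passed with any single array left out. Of their probe sets, 1 of 2 passed for P3H2 and for P4HA1 and 2 of 3 for P4HA2. With the mean of all probe sets the log2 differences were smaller, 1.23 for P3H2, 0.97 for P4HA2 and 0.60 for P4HA1, and each still passed. The brightest probe sets differed by 2.07, 1.51 and 1.17 without MPA array 3. The lysyl hydroxylase genes PLOD1 and PLOD2 were separate but did not pass (differences 0.70 and 0.91, limma adjusted p = 0.0547 and 0.117, and 0.60 and 1.03 without MPA array 3), and PLOD2 passed without control array 2 (adjusted p = 0.011), as did MIA3, an export receptor for procollagen (adjusted p = 0.0429).

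Of 13 genes of procollagen processing and crosslinking 1 was higher and 1 lower, with a median of -0.05. LOX, lysyl oxidase, which starts the crosslinks between collagen chains, read 6.52, 7.01 and 6.48 in controls and 8.94, 8.8 and 8.38 with MPA. Its groups were separate in all 3 of its probe sets, and the brightest was 4.11-fold higher (log2 2.04, SE 0.19, limma adjusted p = 0.000975). Its difference was 2.20 without MPA array 3. LOXL4, a relative of LOX, read 7.62, 7.4 and 7.58 in controls and 6.63, 6.59 and 6.85 with MPA. It fell to 0.557 of the control signal (log2 -0.84, SE 0.12, limma adjusted p = 0.00837), and it no longer passed without control array 1, control array 3 or MPA array 1, with adjusted p-values up to 0.0664. Of its 2 probe sets 1 passed, and their mean differed by -0.39, which did not pass (adjusted p = 0.11). The brighter one differed by -0.93 without MPA array 3 (adjusted p = 0.0075).

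Of 9 collagen receptor genes ITGB1, the common beta chain of the collagen-binding integrins, was higher, at 11.56, 12.15 and 11.85 in controls and 12.67, 12.81 and 12.67 with MPA. The groups were separate and the difference was 1.82-fold (log2 0.86, SE 0.15, limma adjusted p = 0.0265). It passed without control array 2 and with no other array left out, and the adjusted p was 0.00931 to 0.136, with a difference of 0.89 and an adjusted p of 0.0573 without MPA array 3. ITGA10 differed by 0.63 (adjusted p = 0.0682). None of 12 proteoglycan and glycoprotein genes of the fibril surface passed by limma, at an unadjusted p under 0.05 or by SAM, with a median of 0.04, and 9 of the 12 were under the median probe set. None of 9 collagen-degrading enzyme genes passed by limma. MMP2, a gelatinase gene, differed by -0.61 (limma adjusted p = 0.122), was the 1 gene of the list with an unadjusted p under 0.05, and was the only one called by SAM.

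**Figure D4:**
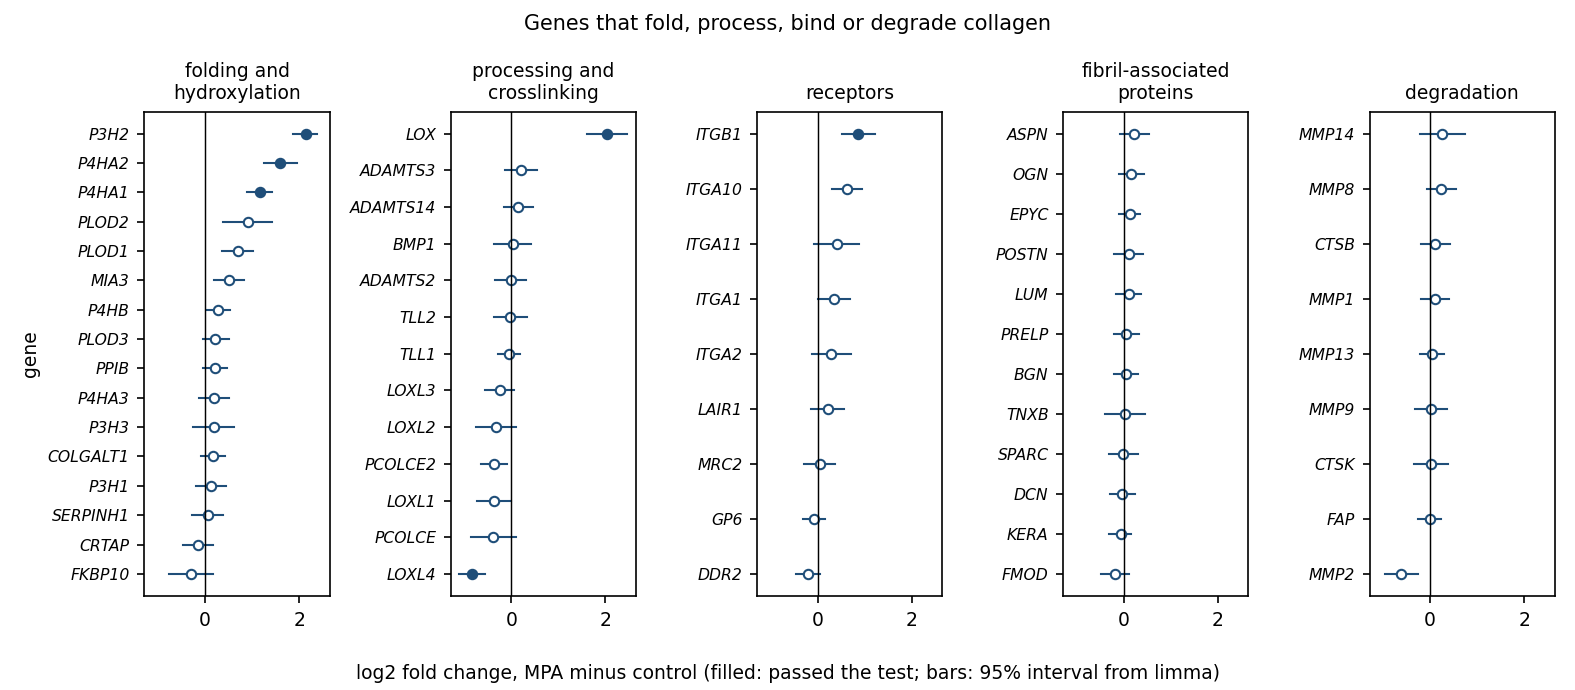
Log2 fold change (MPA minus control, x axis) with 95% confidence intervals from limma for the measured genes of 5 lists, sorted within each panel. Filled points passed the test; they are P3H2, P4HA2, P4HA1, LOX and ITGB1 to the right of 0 and LOXL4 to the left.

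Type IV collagen, the network collagen of basement membranes, gave larger differences than any collagen gene outside it. COL4A3 and COL4A4 were higher with MPA by 4.17 and 3.39 on the log2 scale (limma adjusted p = 3.13e-06 and 1.17e-05), against 1.09 for COL23A1. The other 4 chains of type IV differed by -0.05 to 0.20 and overlapped.

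The share of called genes next to the collagen genes was close to that over all genes. In the order of a GRCh38.p14 gene table, COL3A1 with COL5A2, COL6A1 with COL6A2, COL6A5 with COL6A6 and COL9A1 with COL19A1 are neighbours. In the first pair COL3A1 was separate between the groups and COL5A2 overlapped. Of 64 measured neighbours that are not collagen genes themselves, 1 was higher, DCBLD2 beside COL8A1 (0.79, limma adjusted p = 0.0324), and 1 lower, DEPTOR beside COL14A1 (-1.39, adjusted p = 0.000457), beside 1.74% higher and 1.16% lower over all genes. The measured neighbours of COL23A1 were CLK4 and PHYKPL, which differed by 0.05 and 0.07. Beside COL12A1, COX7A2 and CD109 differed by 0.12 and 0.51 (adjusted p = 0.205 for CD109), and beside COL9A3, TCFL5 and OGFR differed by -0.18 and -0.01.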

How the data were processed

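Affymetrix U133 Plus 2 arrays were run on 3 control and 3 MPA samples of IKPRAB-36 cells. The authors deposited log2 signals from RMA, a method that subtracts background, normalizes the arrays to each other and combines a probe set's probes into one value. No further normalization was applied. The RMA version was not given in the sources used here. Of 54675 probe sets, 62 Affymetrix controls were left out, and 41091 of the 54613 tested had a single symbol in the platform annotation. The groups came from the sample titles. MPA and control arrays were set against each other by limma 3.58.1 in R 4.3.3 (two-sided moderated test from lmFit and eBayes, no covariate), with Benjamini-Hochberg adjustment over all 54613. Calls had adjusted p under 0.05 and met the fold minimum of the study's methods, which removed none of them. An exact permutation test of 3 against 3 arrays cannot go below 0.1 and was not used. SAM was coded from its description, without the SAM software, and run with the study's delta of 0.53 and all 20 relabelings. No false discovery rate was computed for it, so its calls are not the study's own. The scripts were tested on simulated data.

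Every collagen gene was accounted for, and those named with values on each array passed in some probe set, had an unadjusted p under 0.05, passed under another setting, were among the brightest or were chain partners. List genes were named when called under some setting. COL26A1 and the neighbours were named after their values were seen. The genes, classes and lists were chosen with earlier results of these data known. Protein sequence features were not analysed here.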

Additional observations from a re-analysis of the deposited data

How the results depend on the processing

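The numbers of calls depended on the test. Over all probe sets, 1107 calls became 2033 with the replicate number as a block, 2181 by SAM and 510 at a fold minimum of 2, and 518 to 1190 with 1 array left out. Collagen genes called higher, 1 in the report, were 2 (COL18A1 and COL23A1) with the block, by SAM and with the mean of all probe sets, and 0 to 1 with 1 array left out. Those called lower, 2 in the report, were 5 with the block (COL1A1, COL2A1 and COL3A1 added), 6 by SAM (COL27A1 also added), 4 with housekeeping scaling (COL3A1 and COL27A1 added), 1 with the mean of all probe sets (COL9A3), 0 at a fold minimum of 2, and 0 to 3 with 1 array left out. The 0 counts are limma calls, beside 8 genes lower at an unadjusted p under 0.05 with all arrays. With a prior that follows signal, COL3A1 also passed (adjusted p = 0.0495). List genes called, 6 in the report, were 10 with the block, 11 by SAM, 4 at a fold minimum of 2 (LOXL4 and ITGB1 lost) and 4 to 8 with 1 array left out. The dimmer COL18A1 probe set was also lost at a fold minimum of 2. The median of the fibrillar genes minus that of the others was -0.10. It was -0.58 with dim probe sets left out, -0.07 with the mean of all probe sets and -0.14 to -0.03 with 1 array left out. Samples of the same number did not all deviate together (correlations of -0.01704, 0.5229 and 0.3259). Controls 2 and 3 correlated best with the MPA array of their own number, but control 1 did so with MPA 3 (0.3521). The labels do not say whether the numbers mark pairs. They were not taken as pairs, and the calls depend on that choice. Small differences that were not called changed sign with housekeeping scaling, which shifted MPA arrays by 0.08081 relative to controls: COL5A2 -0.04, COL8A1 -0.03 and COL11A1 -0.06. Leaving out 1 array did the same for COL5A2 (-0.06 to 0.17), COL5A3 (-0.03 to 0.23), COL6A3 (-0.07 to 0.22), COL8A1 (-0.02 to 0.12), COL8A2 (-0.01 to 0.27), COL9A2 (-0.05 to 0.22) and COL11A1 (-0.04 to 0.07). In all, 521 of the 602 values recomputed under 15 alternatives kept their side of the threshold without a counted change of direction. Most of the 602 belonged to genes or probe sets that were not called in the report. Dropping the fold minimum could change no call, and a minimum of 2 could only remove calls. With 1 array left out, COL9A3 kept its call in 1 of 6 fits, and COL12A1 and COL23A1 in 2 of 6 each. COL1A2 and COL5A1, whose main differences round to 0.00, could not count as changed in direction. With 1 array left out they ranged from -0.07 to 0.07 and from -0.21 to 0.13. Protein features of the chains, planned as a description, were not run.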

Other observations

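SOX9, chosen after its values were seen, encodes a transcription factor known to drive cartilage collagen genes such as COL2A1, the type IX genes, COL11A2 and COL27A1. Its signal was 9.26, 8.82 and 9.14 on the control arrays and 7.02, 6.88 and 6.31 on the MPA arrays. The groups were far apart, and the gene was lower with MPA (log2 -2.34, SE 0.20, limma adjusted p = 0.000613). On the same arrays COL9A3 was lower (-0.85), COL2A1 and COL27A1 differed by -0.71 and -0.46 without passing, and COL9A1, COL9A2 and COL11A2 differed by 0.19, 0.08 and -0.08. A link between SOX9 and these genes was not tested.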
